A study of Mus musculus with 2 samples.

Results

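A set of 10 genes that encode apolipoproteins, plasma carrier proteins and a factor that loads lipid onto lipoproteins was followed in nuclei of mouse embryos at embryonic day 7.0. They were chosen by name, as the genes Apoa1, Apoa2, Apoa4, Apob, Apoe, Apom, Ttr, Afp, Rbp4 and Mttp. All 10 were among the 32285 genes measured, and 182 of the 229480 accessibility peaks lay within 50000 bp of their transcription starts, 19 of them near more than 1 of these genes. Pooled embryos had been dissociated, and each isolated nucleus gave both nuclear RNA and open chromatin (a single-nucleus multiome). The 2 groups were the nuclear RNA and the chromatin accessibility of that E7.0 pool. Each was 1 library, and both shared all 15341 barcodes, so differences could not be checked against replicates or tested. No genotype or treatment other than the strain entry was given, and the barcodes carried 1 library suffix that did not separate embryos.

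The labels were in conflict. The title, the age and the protocol gave E7.0 embryos, whereas both libraries carried the cell type Goblet cells and the strain RedMUC298trTg, with the small intestine named for the RNA library and the distal colon for the accessibility library. RNA levels are given as CPM, the unique molecular identifiers (UMIs) of a gene scaled by the total UMIs of the nuclei summed. A list of 8 goblet and intestinal epithelium markers summed to 1.79 CPM in visceral endoderm-like nuclei and to 0.894 CPM in the other named nuclei. The 10 visceral endoderm markers summed to 12915 and 650.0 CPM in the same nuclei. Depth was 182201512 UMIs for RNA and 273131304 peak counts for accessibility. After filtering, 12796 nuclei were kept, with medians of 10471 UMIs and 17350 peak counts. Each interval given is a 95% interval for counting error alone.

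Visceral endoderm is the epithelium that surrounds the early mouse embryo before a placenta or a liver has formed. It takes up maternal material through receptors such as cubilin and megalin, and secretes proteins that the fetal liver later makes. Apolipoprotein B is the structural protein of the lipoproteins that carry lipid out of a cell, and the microsomal triglyceride transfer protein Mttp loads lipid onto it in the endoplasmic reticulum. The exchangeable apolipoproteins Apoa1, Apoa2, Apoa4 and Apoe move between particles, while transthyretin (Ttr), retinol binding protein (Rbp4), alpha-fetoprotein (Afp) and Apom carry thyroid hormone, retinol, fatty acids and sphingosine 1-phosphate.

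To read the genes in nuclei that they had not helped to define, the assays were crossed. RNA was read in classes taken from clusters of accessibility computed without the peaks near the 10 genes, and accessibility was read in classes taken from clusters of RNA computed without the 10 genes. Classes were named from markers that were none of the 10. Accessibility clustering gave 20 clusters, of which clusters 7 (755 nuclei) and 9 (648 nuclei) were visceral endoderm-like, 1403 nuclei in all, against 9218 nuclei of other named classes and 2175 unnamed nuclei. RNA clustering gave 24 clusters, of which 4 were visceral endoderm-like, 1804 nuclei in all. The other named classes held 7681 nuclei and 3311 nuclei were unnamed. No RNA cluster was named extraembryonic mesoderm-like or ectoplacental cone-like. The main accessibility comparisons therefore lack these classes, which the RNA comparisons hold. Names rebuilt in this way can differ from those the authors used.

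Promoter sequence was available in the RefSeq table (GRCm38.p6) for 9 of the 10 genes. The stretches upstream of the start of 4 genes are shown, chosen after the motif search: Afp, Apoa4 and Apob because they held a match to the HNF4 core, and Apoa1 as a gene without one. The promoter peaks of all 4 passed the 2-fold limit given further on, as did those of 3 other genes. All lie on the plus strand, at chr5:90490464-90490713 for Afp, chr9:46228380-46228579 for Apoa1, chr9:46240594-46240695 for Apoa4 and chr12:7977427-7977647 for Apob. Capitals mark matches on either strand to CAAAGNNCA, a core of the sites bound by HNF4 factors, and to TATAAA, the TATA box.
Afp: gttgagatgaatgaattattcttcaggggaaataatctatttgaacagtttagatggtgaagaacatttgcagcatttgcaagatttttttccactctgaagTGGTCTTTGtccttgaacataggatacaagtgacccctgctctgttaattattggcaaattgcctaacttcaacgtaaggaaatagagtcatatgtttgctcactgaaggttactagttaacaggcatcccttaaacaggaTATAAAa
Apoa1: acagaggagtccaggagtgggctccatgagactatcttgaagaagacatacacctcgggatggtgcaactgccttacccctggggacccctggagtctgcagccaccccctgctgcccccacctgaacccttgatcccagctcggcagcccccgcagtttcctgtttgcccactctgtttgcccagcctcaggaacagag
Apoa4: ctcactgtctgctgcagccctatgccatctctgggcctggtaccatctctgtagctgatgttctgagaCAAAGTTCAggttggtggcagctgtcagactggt
Apob: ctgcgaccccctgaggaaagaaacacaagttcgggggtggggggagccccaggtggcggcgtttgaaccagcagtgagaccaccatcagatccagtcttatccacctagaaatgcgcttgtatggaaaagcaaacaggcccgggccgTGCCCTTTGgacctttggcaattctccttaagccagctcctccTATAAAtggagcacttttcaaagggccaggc

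The stretches are cut to the bases before both the RefSeq start and the start in the files, which leaves 200 bases for Apoa1, 102 for Apoa4 and 221 for Apob, so the end of a stretch is not always the RefSeq start. Counted over the 250 bases before every RefSeq start of a gene, on both strands, the HNF4 core was found for Afp, Apoa4 and Apob, and for 6.29% of the 27025 genes in the table. TATAAA was found for Afp, Apoa2, Apob, Apoe and Rbp4, and for 14.3% of all genes. The matches do not overlap each other in the stretches shown, and the Apoa1 stretch holds neither motif. A match describes these letters and is not evidence that a factor was bound.

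All 10 genes had higher RNA in visceral endoderm-like nuclei than in the other named nuclei, by 4.61-fold for Apoa2 to 22.8-fold for Afp. All 10 passed a limit of 4-fold on at least 50 UMIs, where 4.68% of the 17273 genes measured at that depth did. Their median was 9.81-fold, and the median of all those genes was 0.84-fold. Together the 10 genes held 1.09% of the UMIs of visceral endoderm-like nuclei and 0.0983% of those of the other named nuclei.

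Apob, the structural protein of secreted lipoproteins, stood at 2854 CPM in visceral endoderm-like nuclei and 134 CPM in the others, a 21.3-fold difference (interval 20.9 to 21.7) on 52741 and 13926 UMIs. Mttp, its lipid-loading partner, stood at 319 and 35.1 CPM, 9.09-fold higher (8.72 to 9.47). A UMI of Apob was seen in 99.4% of visceral endoderm-like and 69.3% of the other named nuclei, and one of Mttp in 87.1% and 29.1%, at median depths of 12251 and 10409 UMIs.

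The exchangeable apolipoproteins were 4.61-fold to 11.5-fold higher. Apoa1, the main protein of high-density lipoprotein, stood at 1955 CPM against 176 CPM, 11.1-fold higher (10.9 to 11.3). Apoa4, which is carried on chylomicrons and high-density lipoprotein, stood at 218 against 19.0 CPM, 11.5-fold higher (10.9 to 12.1). Apoe, a ligand through which cells take up lipoproteins, stood at 2856 against 365 CPM, 7.83-fold higher (7.73 to 7.94). Its smaller fold came with a level outside visceral endoderm-like nuclei that differed between classes, described further on. Apoa2, a second high-density lipoprotein protein, stood at 22.9 against 4.98 CPM, 4.61-fold higher (4.04 to 5.25) on 424 and 518 UMIs. Apoa2 was the gene nearest the 4-fold limit. It was 2.79-fold higher when unnamed nuclei were added to the comparison, 3.31-fold in classes from RNA clusters and 3.86-fold with doublet calls kept, but 7.17-fold at a clustering resolution of 0.5. Within the class, Apoa2 was 6.71-fold higher in cluster 7 and 2.36-fold higher in cluster 9 than in the other named nuclei.

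The carriers were 7.62-fold to 22.8-fold higher. Afp, the fetal relative of albumin, stood at 620 CPM against 27.2 CPM, 22.8-fold higher (21.9 to 23.8). Ttr, the carrier of thyroid hormone, stood at 1291 against 134 CPM, 9.62-fold higher (9.42 to 9.82). Rbp4 stood at 471 against 47.0 CPM, 10.0-fold higher (9.66 to 10.4), and Apom, a lipocalin of high-density lipoprotein, at 310 against 40.6 CPM, 7.62-fold higher (7.32 to 7.93). Reads of Ttr and of the overlapping gene Gm16090, and those of Apoa2 and Tomm40l, may not be told apart, since the use of strand in counting was not given in the sources used here. Over the alternatives run, the fold ranged from 8.96 to 25.6 for Apob, from 11.7 to 28.9 for Afp, from 6.21 to 9.62 for Ttr and from 4.58 to 9.45 for Apoe. It ranged from 7.09 to 11.6 for Apoa1, from 5.70 to 13.3 for Apoa4, from 4.97 to 8.14 for Apom, from 6.70 to 12.1 for Rbp4 and from 5.70 to 10.2 for Mttp.

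**Figure D1:**
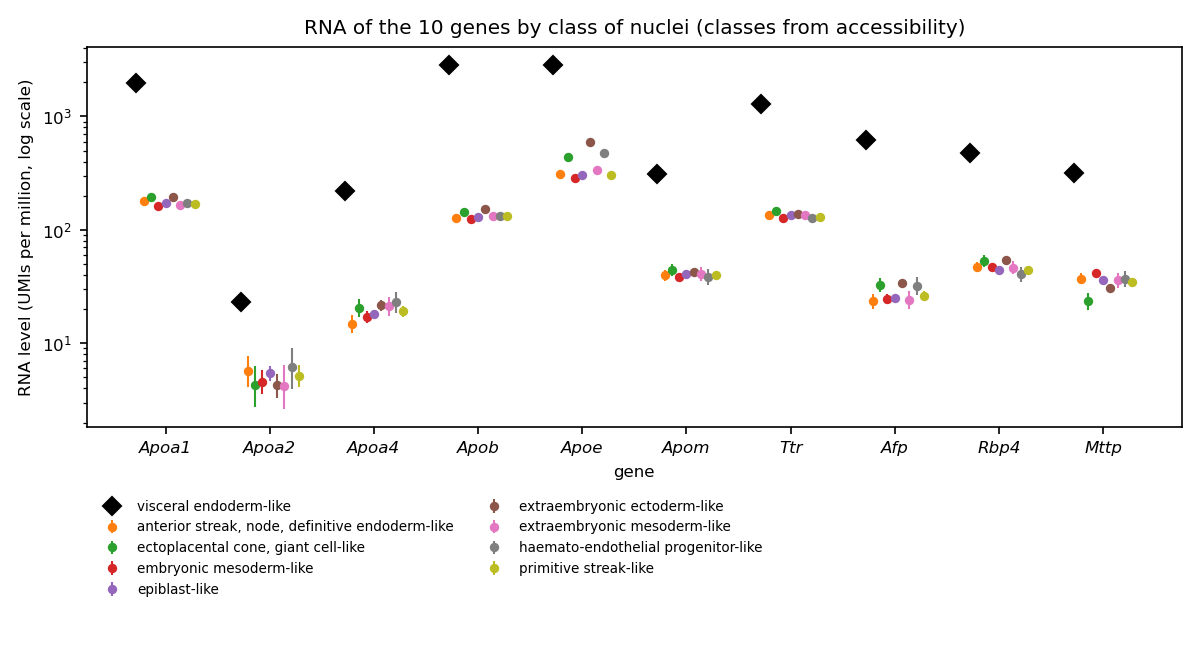
RNA of the 10 genes in each named class with at least 100 nuclei, in CPM on a log axis. Black diamonds mark visceral endoderm-like nuclei and other markers the other classes. The diamonds lie above all other classes for each gene, and the other classes lie close together for Ttr, at 126 to 146 CPM over the 8 classes with at least 100 nuclei against 1291 CPM, and further apart for Apoe, at 287 to 595 CPM. The 35 parietal endoderm-like nuclei, which are not plotted, held Ttr at 194 CPM (152 to 244).

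Outside visceral endoderm-like nuclei, RNA of the 10 genes was present in each of the 8 classes with at least 100 nuclei, at a low level that was nearly even for some of them. Ttr ranged from 126 CPM in haemato-endothelial progenitor-like to 146 CPM in ectoplacental cone-like nuclei, which is 9.75% to 11.3% of its level in visceral endoderm-like nuclei. Apob ranged from 125 to 152 CPM, or 4.38% to 5.33%, and Apoa1 from 162 to 195 CPM, or 8.31% to 9.96%. Afp ranged from 23.5 to 33.8 CPM, Apom from 38.3 to 44.5 CPM, Rbp4 from 40.6 to 54.6 CPM Apoa4 from 14.9 to 22.9 CPM and Apoa2, on few UMIs, from 4.22 to 6.16 CPM. The highest class exceeded the lowest by 1.16-fold for Ttr and Apom, by 1.20-fold for Apoa1, by 1.22-fold for Apob and by 1.54-fold for Apoa4. The widest ranges were those of Apoe, at 2.07-fold, and Mttp, at 1.77-fold.

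A UMI of Ttr was seen in 70.0% of the other named nuclei (median 10409 UMIs per nucleus) and in 96.4% of visceral endoderm-like nuclei (median 12251 UMIs). With each nucleus of at least 5000 UMIs thinned to 5000 UMIs, the shares were 46.5% and 95.8%. Shallower nuclei were left out, 800 of 9218 and 143 of 1403. Within epiblast-like nuclei, the level of Ttr moved with depth. It was 185 CPM in the 1027 nuclei with the fewest UMIs, 133 CPM in the next 1024 and 117 CPM in the 1026 deepest, while the mean went from 1.12 to 1.35 and 1.90 UMIs per nucleus. The 437 barcodes under 1000 UMIs, which entered no class, held Ttr at 751 CPM, Apob at 1048 CPM and Apoe at 1137 CPM. RNA that is free in a droplet can add UMIs to nuclei that do not express a gene, and its part in these levels was not tested.

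Each gene was also read per UMI of Ttr. Divided by the same ratio in visceral endoderm-like nuclei, the ratio in the other named nuclei was 0.961 for Rbp4 (0.923 to 1.001), 1.06 for Mttp (1.01 to 1.11), 0.867 for Apoa1 and 0.837 for Apoa4. Apoe was at 1.23 (1.20 to 1.26) and Apom at 1.26 (1.21 to 1.32). Apob, at 0.451 (0.439 to 0.464), and Afp, at 0.422 (0.403 to 0.442), were lower against Ttr outside visceral endoderm-like nuclei than within them. Apoa2, at 2.09 (1.83 to 2.38), was the only gene past a ratio of 2 with Ttr as the reference, whereas 7 genes were past it with Afp as the reference. Apoa2 was not past 2 under 5 of the alternatives run, with its value ranging from 0.946 to 4.95 over all of them. Across the 8 classes with at least 100 nuclei, the same measure kept to a narrow range for some genes, at 0.431 to 0.495 for Apob, 1.23 to 1.28 for Apom, 0.81 to 0.921 for Apoa1 and 0.886 to 1.08 for Rbp4. It ranged more widely for Apoe (1.01 to 1.93), Mttp (0.649 to 1.32), Apoa4 (0.658 to 1.08), Apoa2 (1.64 to 2.75) and Afp (0.364 to 0.53).

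**Figure D2:**
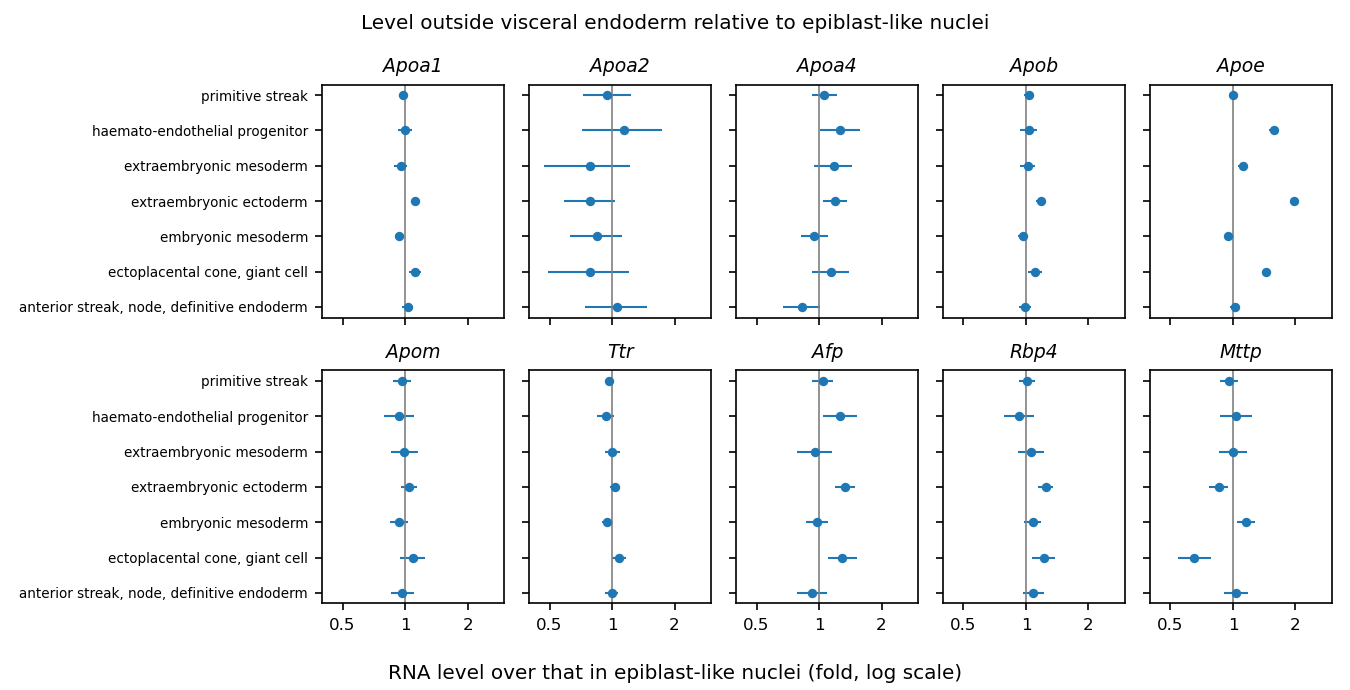
Level of each gene in the other classes divided by its level in epiblast-like nuclei, with 95% counting intervals. Visceral endoderm-like and parietal endoderm-like nuclei are not plotted. Most points lie near 1, and Apoe in extraembryonic ectoderm-like nuclei stands at 1.97.

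Apoe differed most between the classes outside visceral endoderm. It stood at 287 CPM in embryonic mesoderm-like, 302 CPM in epiblast-like, 439 CPM in ectoplacental cone-like, 474 CPM in haemato-endothelial progenitor-like and 595 CPM in extraembryonic ectoderm-like nuclei. Against epiblast-like nuclei, it was 1.97-fold higher in extraembryonic ectoderm-like nuclei (1.92 to 2.03), 1.57-fold in haemato-endothelial progenitor-like nuclei (1.49 to 1.65) and 1.45-fold in ectoplacental cone-like nuclei (1.39 to 1.52). Per UMI of Ttr, the first of these was 1.91-fold (1.80 to 2.02). Nuclei with at least 5000 UMIs were also thinned to 5000 UMIs. At least 5 UMIs of Apoe were then found in 19.9% of extraembryonic ectoderm-like, 12.9% of haemato-endothelial progenitor-like and 3.70% of epiblast-like nuclei. The share was 91.1% in visceral endoderm-like nuclei. Other genes were also higher in extraembryonic ectoderm-like than in epiblast-like nuclei, with intervals above 1. Afp was 1.34-fold (1.20 to 1.49), Rbp4 1.25-fold (1.15 to 1.36), Apoa4 1.19-fold, Apob 1.18-fold and Apoa1 1.12-fold higher. The intervals of Ttr, Apom and Apoa2 there included 1. Afp was also 1.30-fold higher in ectoplacental cone-like and 1.27-fold in haemato-endothelial progenitor-like nuclei. Mttp was lower in ectoplacental cone-like nuclei, at 0.653 of its epiblast-like level (0.541 to 0.782). In extraembryonic ectoderm-like nuclei Mttp was at 0.855 (0.769 to 0.949), and in embryonic mesoderm-like nuclei it was 1.16-fold higher (1.05 to 1.28).

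Accessibility near Apoe was read in the extraembryonic ectoderm-like and epiblast-like classes from RNA clusters. These are not the same sets of nuclei as in the RNA comparison of Apoe, which used accessibility clusters. Of 26 peaks, 4 were at least 2-fold more open in extraembryonic ectoderm-like (1044) than in epiblast-like (3965) nuclei. That share is close to the 14.3% of all peaks that passed the limit, and a link to Apoe RNA was not tested. The peak at chr7:19686665-19687574, 10693 bp from the Apoe start, held 949 counts in extraembryonic ectoderm-like and 112 in epiblast-like nuclei, or 51.3 against 1.45 CPM of peak counts, a 35.3-fold difference (27.0 to 47.0). In visceral endoderm-like nuclei it stood at 27.5 CPM. The peak at chr7:19682330-19683126 was 6.69-fold and the peak at chr7:19691765-19692517 4.38-fold more open in extraembryonic ectoderm-like nuclei, and they also overlapped the promoters of Apoc4 and Apoc1. The fourth, at chr7:19673065-19673944 (2.57-fold), overlapped the promoter of Apoc2, and the 35.3-fold peak overlapped no other promoter. Both peaks at the Apoe promoter were lower there than in epiblast-like nuclei, at 0.717 and 0.785 of the level.

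The 10 genes were compared between the visceral endoderm-like clusters 7 and 9 and 2 unnamed clusters in which visceral endoderm markers were also raised. Cluster 7 was led by Aass and Slc2a2, and cluster 9 by 6330411D24Rik and Arid3c. Cluster 8 (683 nuclei, led by Scube2 and Mamld1) and cluster 13 (445 nuclei, led by 6030498E09Rik and Gckr) stayed unnamed and were in neither side of the comparison. In cluster 8 the visceral endoderm list scored highest, with a mean log2 ratio of 1.85, and the parietal endoderm list had one of 1.54. There 9 of the 10 visceral endoderm markers were raised. They summed to 10266 CPM, against 12898 and 12933 CPM in clusters 7 and 9. In cluster 13 the 6 anterior visceral endoderm markers summed to 1532 CPM, against 88.1, 339 and 121 CPM in clusters 7, 9 and 8, but this list also summed to 1163 CPM in embryonic mesoderm-like and 1001 CPM in anterior streak-like nuclei. The list that scored highest in cluster 13 was that of anterior streak, node and definitive endoderm, with a mean log2 ratio of 1.52, and the visceral endoderm list had a mean of -0.09. That list had 5 markers raised there and summed to 4450 CPM, against 650.0 CPM in the other named nuclei.

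Afp was lowest in cluster 8. It stood at 577 CPM in cluster 7, 666 CPM in cluster 9, 363 CPM in cluster 13 and 111 CPM in cluster 8, which is 5.21-fold lower in cluster 8 than in cluster 7 (4.89 to 5.56). Apoa2 followed another order, at 42.3 CPM in cluster 8, 33.4 in cluster 7, 11.8 in cluster 9 and 6.65 in cluster 13. It was 6.36-fold higher in cluster 8 than in cluster 13 (4.66 to 8.88). Rbp4 was 4.15-fold and Mttp 3.84-fold higher in cluster 7 than in cluster 13. Apoe differed least, at 2677, 3048, 2070 and 2476 CPM in clusters 7, 9, 8 and 13. Parietal endoderm markers summed to 2513 CPM in cluster 8 and 1174 CPM in cluster 7, and their part in the differences was not tested.

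**Figure D3:**
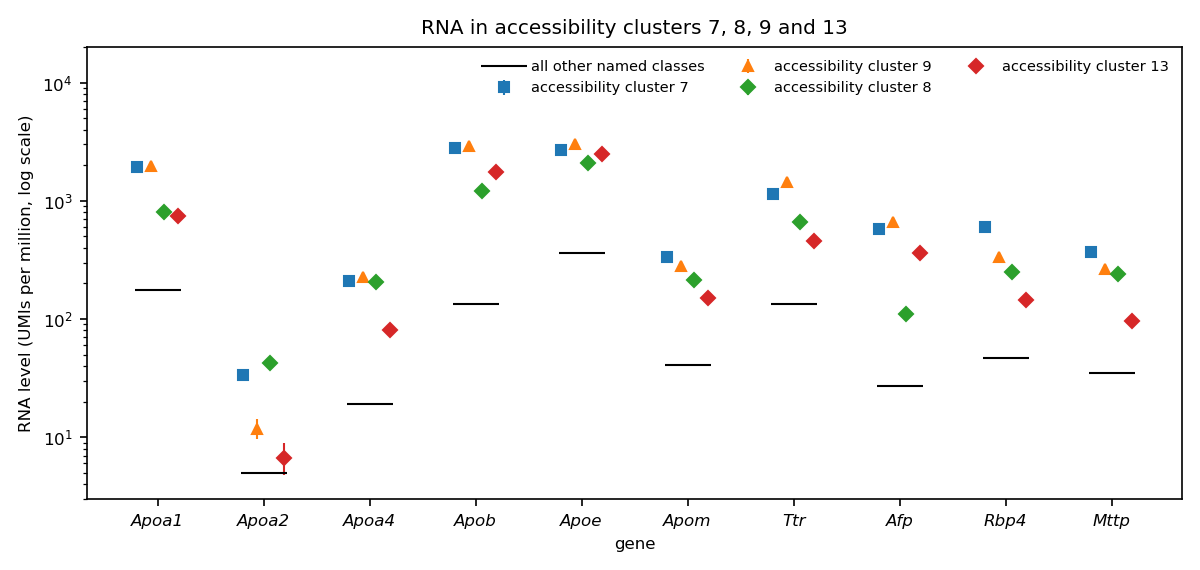
RNA of the 10 genes, in CPM on a log axis, in the visceral endoderm-like accessibility clusters 7 and 9 and the unnamed clusters 8 and 13, with black bars for all other named classes. Afp is lowest in cluster 8, at 111 CPM, and Apoa2 is lowest in cluster 13, at 6.65 CPM.

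Promoters of 7 of the 9 genes that had a promoter peak were at least 2-fold more open in visceral endoderm-like nuclei, where 4.72% of 22197 genes with a promoter peak passed that limit. The median of the 9 genes was 9.78-fold, against 1.02-fold over all genes with a promoter peak. Around the Apoa2 starts that the files give, no peak lay within 1000 bp. RefSeq also lists an earlier Apoa2 start, and the 2 peaks nearest to it, at chr1:171220576-171221414 and chr1:171222155-171223067, were at 0.887 and 1.14 of the level elsewhere and also overlapped the Tomm40l promoter.

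The Afp promoter held 448 counts in visceral endoderm-like and 42 in the other named nuclei, 45.4-fold higher (29.5 to 73.0). Ttr was 26.6-fold (21.1 to 33.9), Apoa4 21.7-fold (18.4 to 25.8), Apom 21.0-fold (17.5 to 25.3), Apoa1 9.78-fold (8.21 to 11.7) and Apob 5.75-fold more open (5.09 to 6.49). The 1 Ttr promoter peak also overlapped the promoter of Gm16090. The Apob value sums a peak at the start, chr12:7977163-7977971, which was 11.1-fold more open (9.18 to 13.5), and a peak at chr12:7978260-7979104, which was 3.34-fold (2.82 to 3.96). That of Apoa4 sums a peak at the start, chr9:46240538-46241194, which was 11.8-fold more open (8.89 to 15.9), and a peak beyond it that was 27.2-fold. In epiblast-like nuclei the Ttr promoter had 28 counts in 15 of 3965 nuclei, whereas 420 of 1804 visceral endoderm-like nuclei had a count there. Epiblast-like nuclei of the accessibility classes held a Ttr UMI in 69.1% of cases. For Apoa1, a window of 2000 bp to each side gave 1.98-fold. Over the alternatives run, the promoter fold ranged from 27.6 to 74.3 for Afp, from 15.8 to 80.5 for Ttr, from 12.7 to 37.9 for Apoa4, from 1.98 to 13.3 for Apoa1 and from 13.04 to 32.05 for Apom.

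One RNA cluster bore on these values. Cluster 19 (135 nuclei) was named parietal endoderm-like and so counted among the others. The parietal endoderm list had a mean log2 ratio of 2.43 there, against 5.32 in cluster 23. The visceral endoderm list also scored in cluster 19, at 1.19. Its leading genes included Igfbp1, Epas1, Mamld1, Pitx1 and Scube2, which also led accessibility cluster 8, a cluster on neither side of the RNA comparison. The nuclei common to both clusters were not counted. Cluster 19 made up 135 of the 167 parietal endoderm-like nuclei of the RNA classes. Its nuclei held Ttr at 660 CPM, Apoa2 at 116 CPM and Afp at 54.7 CPM, and its Ttr promoter stood at 34.7 CPM of peak counts. The visceral endoderm-like RNA clusters held Apoa2 at lower levels, from 4.62 to 38.6 CPM. In the smaller parietal endoderm-like cluster 23, the Ttr promoter stood at 28.1 CPM. Without cluster 19, the promoter difference was 58.4-fold for Ttr and 34.8-fold for Apoa4, and 58.5-fold for Afp. The number of promoters past 2-fold was again 7.

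Rbp4 and Apoe had promoters that were also open outside visceral endoderm, and so did Mttp at 1 of its 2 promoter peaks. Rbp4 was 2.43-fold more open (2.16 to 2.72), and 1.98-fold with doublet calls kept. Apoe was 1.65-fold (1.53 to 1.78) and Mttp 1.45-fold (1.37 to 1.53) more open, and neither reached 2-fold, although Apoe was 2.23-fold with the window of 2000 bp. The Mttp value sums 2 peaks. The peak at chr3:138143264-138144148, which also overlapped the promoter of Trmt10a, stood at 75.3 against 60.6 CPM, 1.24-fold more open. The peak at chr3:138130742-138131637, at the other end of the starts that the files give and at no other promoter, stood at 19.3 against 4.70 CPM, 4.10-fold more open (3.52 to 4.76). For these 3 genes, RNA differed by 7.83-fold or more.

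**Figure D4:**
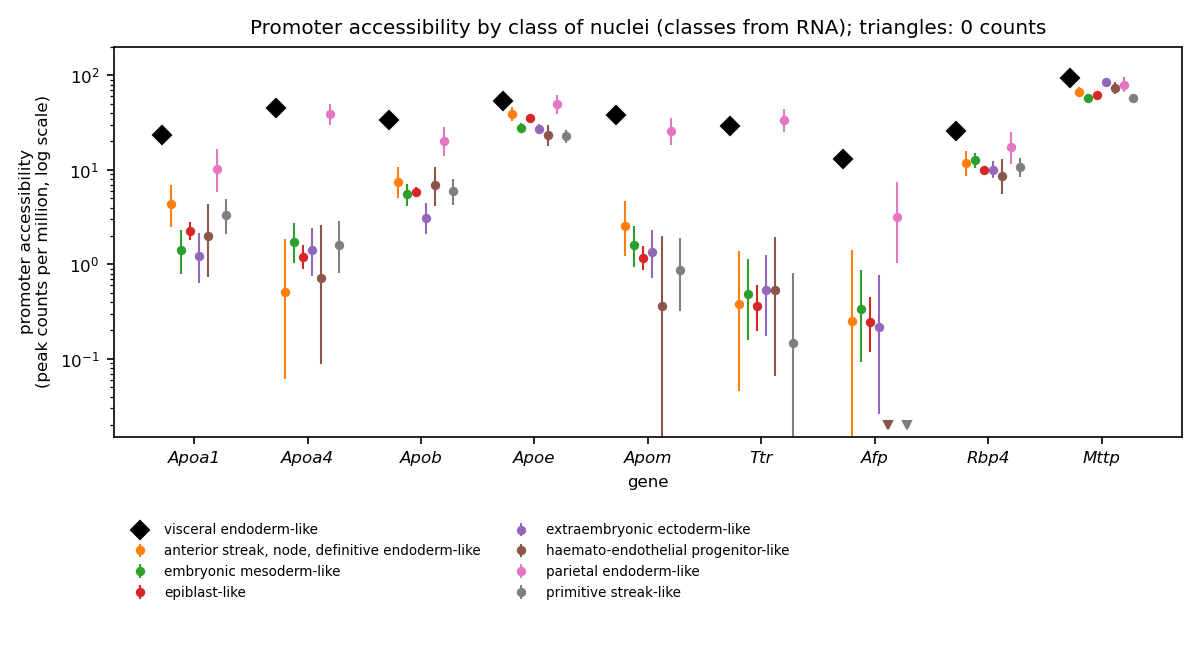
Accessibility at the promoters of the 9 genes with a promoter peak, in CPM of peak counts on a log axis, by class of RNA cluster, with triangles for classes with no count. Visceral endoderm-like nuclei (black diamonds) stand apart for Afp, at 13.02 against 0.287 CPM in the other named nuclei, and lie close to the others for the 2 Mttp peaks summed, at 94.5 against 65.3 CPM, most of it from the peak shared with Trmt10a.

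Of the 182 peaks near the 10 genes, 79 (43.4%) were at least 2-fold more open in visceral endoderm-like nuclei, a limit that 13.6% of all peaks passed, and 17 were at least 2-fold less open, where 38% of all peaks were. The median over the 182 peaks was 1.55-fold, against 0.655-fold over all peaks. Promoters of the 10 genes took up 13 of these peaks and 169 were elsewhere, 36 of them at the promoter of another gene. By gene, 11 of 13 peaks near Apob were at least 2-fold more open, 17 of 24 near Ttr, 13 of 21 near each of Apoa1 and Apoa4, which have 19 peaks in common, 10 of 23 near Mttp, 10 of 26 near Apoe, 7 of 19 near Rbp4, 6 of 11 near Afp and 4 of 17 near Apom. Near Apoa2 it was 1 of 26, at chr1:171260762-171261605 (5.11-fold, 3.64 to 7.21).

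Single peaks away from the promoters reached differences as large as those at promoters. The peak at chr5:90488069-90488978, 1759 bp from the Afp start, was 45.6-fold more open (31.8 to 67.4) on 621 and 58 counts. The peak at chr19:38135330-38136003, 10082 bp from Rbp4, was 43.6-fold more open (27.6 to 72.2), although the Rbp4 promoter was 2.43-fold. The peak at chr12:7973352-7974256, 3392 bp from Apob, was 43.4-fold more open (29.6 to 66.1). Near Mttp, the peak at chr3:138134119-138134978 lay in the gene and was 19.96-fold more open (14.7 to 27.6).

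In the Apoe surroundings, the peak with the largest difference, at chr7:19677613-19678483, was 29.9-fold more open (24.5 to 36.7) and overlapped the promoter of Apoc2, another apolipoprotein gene. In the shared surroundings of Apoa1 and Apoa4, the peak at chr9:46241605-46242488 was 27.2-fold more open (22.1 to 33.7) and belonged to the Apoa4 promoter window. A peak 24508 bp from Apoa4, at chr9:46215298-46216188, was 25.8-fold more open (21.8 to 30.7). Exon and UTR annotation was not used here.

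**Figure D5:**
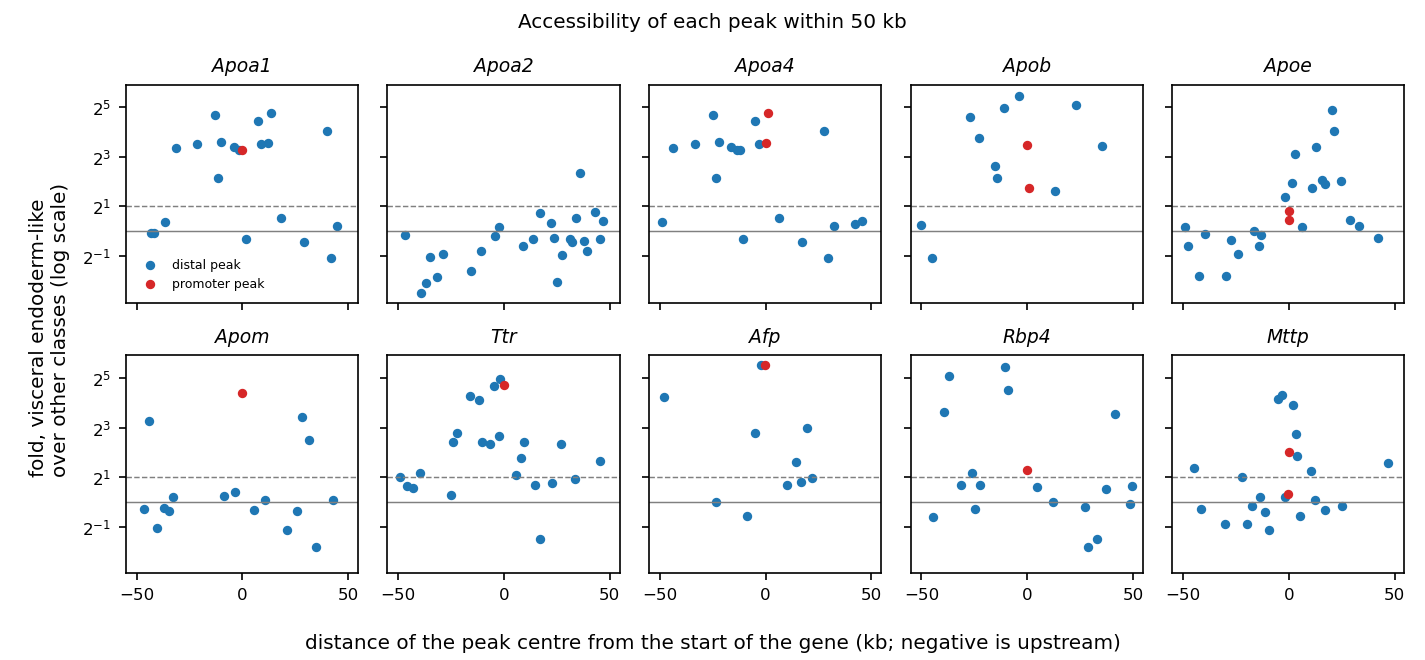
Fold of accessibility, visceral endoderm-like over other named nuclei, on a log axis, for the peaks near each gene against their distance from its start, with promoter peaks in red, the others in blue and a dashed line at 2-fold. Peaks above the line number 11 of 13 near Apob and 1 of 26 near Apoa2.

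Other genes of the same pathways were read in the same comparison of RNA, in which 4.68% of all genes were at least 4-fold higher. A list named for other apolipoproteins, which also held the RNA-editing enzyme gene Apobec1 (0.832-fold), had 7 genes with at least 50 UMIs. Of these, 3 were at least 4-fold higher in visceral endoderm-like nuclei, Apoa5 (15.8-fold), Apoc2 (6.54-fold) and Apoc3 (6.17-fold), while Apoc1 was 1.73-fold higher and Apool and Apoo were at 0.671 and 0.801 of the level elsewhere. Of 12 other plasma protein genes, 9 were at least 4-fold higher, led by plasminogen (Plg, 24.6-fold), transferrin (Trf, 17.9-fold), Ambp (17.4-fold) and fibrinogen alpha (Fga, 12.97-fold), with Igf2 at 2.57-fold and Cp at 2.29-fold. Albumin (Alb) had 3 UMIs in visceral endoderm-like and 22 in the other named nuclei and was not compared. The medians of these lists were 1.73-fold and 11.2-fold.

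Of 12 genes in a list named for lipoprotein assembly and export, 3 were at least 4-fold higher, against 4.68% of all genes. They were the sterol acyltransferase Soat2 (23.7-fold), Pla2g12b (11.0-fold) and Cideb (4.91-fold). The triglyceride synthesis gene Dgat2 was 3.67-fold higher, and Dgat1 was at 0.749. The list also held Acat2, an acetyl-CoA acetyltransferase gene, which was at 0.754. Of 16 receptors and remodelling genes, 5 were at least 4-fold higher and 4 at least 4-fold lower, where 4.68% and 13.2% of all genes were. The uptake receptors Cubn (62.9-fold), Amn (13.8-fold) and Lrp2 (9.29-fold) were among the markers that named the class, so their values are a description, while hepatic lipase (Lipc, 31.9-fold) was not. The cholesterol exporter Abcg1 was at 0.114 of the level elsewhere. Of 13 transcription factors of the hepatocyte network, 6 were at least 4-fold higher and 1 at least 4-fold lower, against the same 4.68% and 13.2%. Hnf4a (24.0-fold) had also named the class, Nr1h4 (14.2-fold) had not, and Cebpa and Cebpb were at 0.191 and 0.474. The medians of these 3 lists were 2.02-fold, 1.44-fold and 2.95-fold.

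Over the 20 accessibility clusters, the RNA levels of the 10 genes moved together to different degrees, given here as a description since the clusters share a library. Pearson's r of log2 CPM was highest for Apoa1 with Ttr (0.995) and lowest for Apoa2 with Afp (0.716). Among other genes with at least 200 UMIs, the cathepsin gene Ctsh was among the 3 most alike for Apoa1 (0.978), Apoa4 (0.985), Apoe (0.983), Apom (0.977), Ttr (0.976) and Rbp4 (0.972). The zinc transporter gene Slc39a5 was most alike for Apob (0.983), Slc13a4 for Mttp (0.971), Cldn2 for Afp (0.958) and Tnfaip8l3 for Apoa2 (0.970). Among 1260 visceral endoderm-like nuclei thinned to 5000 UMIs, Spearman's rho was 0.638 for Apoa1 with Apoe, 0.579 for Apoa1 with Ttr, 0.569 for Apoe with Ttr and 0.0736 for Apoa2 with Afp.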

How the data were processed

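The authors deposited whole-number counts, UMI counts per gene and counts per accessibility peak, not normalized, in 1 matrix over 15341 barcodes. Per the submitters' processing notes, Cell Ranger ARC 2.0.0 and the build mm10 were used; other steps are not given in the sources used here. Coordinates are those of the files, counted from 1.

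Nuclei needed 1000 UMIs, 500 genes, 1000 peak counts and at most 20% mitochondrial UMIs (13896 barcodes). Scrublet in scanpy 1.11.5, at an expected doublet rate of 0.1, called 7.52% of all barcodes, and 1100 calls were removed. RNA was normalized to 10000 UMIs per nucleus and reduced to 30 components of 2000 variable genes, and peaks seen in at least 50 nuclei were weighted by TF-IDF. Clusters came from leidenalg 0.10.2 on 15-neighbour graphs, at resolution 1. A cluster was named where a marker list reached a mean log2 ratio of 0.5 with 3 markers raised 1.5-fold. No list could have more markers among the 10 leading genes of the cluster. A rival list above 0.5 of the best score blocked the name only with at least as many leading markers. Named classes could thus have a close rival, such as extraembryonic mesoderm-like accessibility cluster 12 (1.51, with embryonic mesoderm at 1.14). Shallow clusters without a leading marker stayed unnamed. The rule was set after the data were seen. The 10 genes and all lists were chosen with earlier results of these data known.

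Counts were summed per class and given as CPM. Intervals on folds are exact conditional Poisson intervals. Of the nonzero peak values, 86.4% were even, so peak intervals used counts divided by 2 and rounded up. Intervals on ratios to Ttr came from a delta method on the log scale. On RNA counts simulated as Poisson draws, the fold intervals held a true 4-fold change for 95.8% of 48 genes. This checks the computation alone, since the draws hold no spread between nuclei. The peak intervals and those on ratios were not simulated. All 10 genes were named, with the 4 highest and 2 lowest of each other list, the 3 genes most alike, and per gene the distal peak with the highest fold. Some genes that this rule names are not reported here. The other peaks named near Apoe, Apoa2, Apoa4, Apob and Mttp, and clusters 8, 13 and 19, were singled out after their values were seen. Filters, doublets, resolution, comparison nuclei, assay, windows and reference gene were varied.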

Additional observations from a re-analysis of the deposited data

How the results depend on the processing

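With 1 library per assay, no replicate could be left out. No paired analysis was possible because each group held 1 library and no result came from a test. The number of genes at least 4-fold higher in visceral endoderm-like nuclei was 10 or 9 under every alternative run, and Apoa2 was the gene lost. The number of promoters at least 2-fold more open was 7, or 6 with doublet calls kept, when Rbp4 was lost. With the window of 2000 bp it was 7, with Apoe in place of Apoa1. Peaks at least 2-fold more open numbered 72 to 81, except that within 20000 bp there were 52 of 89 peaks. The number of genes over-represented against Ttr, 1 as reported, was 0 with 2000 UMIs and 2000 peak counts required, 0 with doublet calls kept, 0 at resolution 0.5 and 0 at resolution 2. It was also 0 with the peaks near the 10 genes kept in the clustering, an alternative chosen after seeing the data. With Afp in place of Ttr it was 7. The cause was not tested. Leaving out the deepest visceral endoderm-like RNA cluster, or RNA cluster 19, was chosen after seeing the data and gave 78 peaks and 7 promoters each time. Low counts limit Apoa2 most, with 424 UMIs in visceral endoderm-like nuclei.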

Other observations

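RNA cluster 23, the smaller parietal endoderm-like cluster (32 nuclei), held 16 counts at the Ttr promoter in 7 nuclei, 28.1 CPM of peak counts, with Ttr RNA at 163 CPM. Visceral endoderm-like nuclei stood at 29.2 CPM at that promoter. The visceral endoderm list had a mean log2 ratio of -0.88 in cluster 23, and neither Afp, Apoa1 nor Apom had a promoter count there. The deepest visceral endoderm-like RNA cluster, cluster 21 (100 nuclei, median 25726 UMIs), held Ttr at 254 CPM, Apoa1 at 331 CPM and Apoe at 684 CPM, against 1498, 2086 and 2946 CPM in RNA cluster 8.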
